A study of Mus musculus with 15 samples.

Results

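The genes described here are the receptor chains for the interleukin-12 (IL-12) family, Il12rb1, Il12rb2 and Il27ra, and the 4 Janus kinases (JAKs), Jak1, Jak2, Jak3 and Tyk2. They were chosen by symbol and are 7 of the 35142 mouse genes for which a transcript was quantified. RNA was sequenced from 15 cultures of dissociated cerebellar cells from newborn (P0-P4) C57BL/6 wild-type pups, kept for 14 days in vitro in a neuronal medium and labelled as neurons. Of these, 5 were left unstimulated, 5 received 30 ng/ml and 5 received 100 ng/ml IL-12p70, the recombinant mouse cytokine in its paired form, with 18 h of exposure. No sorting step is described, and the sources used here do not state whether replicate cultures came from separate litters or pups, so p-values measure the spread between these cultures, which may be technical.

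IL-12 is a heterodimer of the subunits encoded by Il12a and Il12b. It binds a receptor made of the Il12rb1 chain, which is also part of the IL-23 receptor, and the Il12rb2 chain, which is particular to IL-12 and carries the docking site for the transcription factor STAT4. TYK2 is associated with the former chain and JAK2 with the latter, and the receptor is best known from T cells and natural killer (NK) cells. Il27ra is a related chain that forms the IL-27 receptor together with Il6st (gp130), and signals mainly through JAK1. JAK3 is the kinase of the common gamma chain receptors for IL-2, IL-4, IL-7 and related cytokines, and is expressed mainly in blood-derived cells.

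Short coding stretches show what sets the receptor chains and the kinases apart as families, and how different their sequences are for the assignment of reads. For the receptor chains, the stretch around the tryptophan-serine box is shown, a motif of the extracellular part of cytokine receptors of this class. Capitals mark the codon pairs of the box, and all sequences are given 5′ to 3′ on the coding strand of GRCm39. The stretch is in exon 7 of Il12rb1-201 (chr8:71266374-71266412, + strand), exon 7 of Il12rb2-201 (chr6:67328242-67328280, - strand) and exon 5 of Il27ra-201 (chr8:84766126-84766164, - strand).
Il12rb1: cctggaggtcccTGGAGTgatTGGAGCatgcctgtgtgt
Il12rb2: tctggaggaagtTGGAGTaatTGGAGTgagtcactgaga
Il27ra: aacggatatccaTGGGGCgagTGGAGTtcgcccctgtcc
The box is complete in Il12rb1 and Il12rb2, whereas in Il27ra its second codon reads GGC, a glycine codon.

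For the kinases, the activation loop is shown from the codons of the aspartate-phenylalanine-glycine motif to the codons of the paired tyrosines that are phosphorylated when a JAK is active. Both are in capitals. The stretch is in exon 22 of Jak1-201 (chr4:101013619-101013669, - strand), exon 22 of Jak2-202 (chr19:29279392-29279442, + strand), exon 21 of Jak3-202 (chr8:72138690-72138740, + strand) and exon 22 of Tyk2-203 (chr9:21019190-21019240, - strand).
Jak1: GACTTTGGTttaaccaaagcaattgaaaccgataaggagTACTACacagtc
Jak2: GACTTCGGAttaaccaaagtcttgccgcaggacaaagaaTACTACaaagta
Jak3: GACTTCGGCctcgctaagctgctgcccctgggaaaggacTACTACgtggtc
Tyk2: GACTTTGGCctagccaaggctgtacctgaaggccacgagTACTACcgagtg
Over the whole coding sequence, pairs of the 4 kinases shared between 48.8% and 54.8% of aligned bases, and pairs of the 3 receptor chains between 38.3% and 44.4%. The longest identical run between annotated transcripts of any pair of these genes was 35 bases, between Il12rb1 and Il12rb2. The next longest was 22 bases, between Jak1 and Tyk2. Some transcripts were shorter in the quantified set, Il12rb1-201 with 2873 bases against 4988 annotated. Whether these runs lie in the quantified part was not tested. The reads were 100 bases long.

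Between 25746096 and 38435850 reads per culture were assigned to genes. Whole cultures were measured, and the label of neurons covers a mixture. Without stimulation, the median level was 200 TPM (transcripts per 1000000, a level corrected for transcript length) over 14 microglia markers, 181 TPM over 11 astrocyte markers, 108 TPM over 12 oligodendrocyte-lineage markers and 9.78 TPM over 15 cerebellar neuron markers. The 2 most abundant of the latter, Map2 and Zic1, were at 84.9 and 72.4 TPM. Of 16 T and NK cell markers, 3 passed the filter of at least 1 count per 1000000 (CPM) in at least 2 cultures, Cd4 with 64 to 270 reads per culture, Lck with 32 to 63 and Klrb1c with 15 to 37, as many as the least abundant receptor chains. None of these was called in any comparison, and the other markers had at most 34 reads. Among the latter, Ncr1 had 0 reads in all 15 cultures and Cd3e had at most 3. Trbc2, which was not tested, was at 0.342 ± 0.105 CPM in unstimulated cultures, 0.442 ± 0.0958 CPM at 30 ng/ml and 0.719 ± 0.0428 CPM at 100 ng/ml (6 to 25 reads). The untested markers went both ways. Cd247 was at 0.233, 0.287 and 0.325 CPM in the same order of groups. Zap70 was at 0.874, 0.612 and 0.674 CPM, and Cd3d at 0.388, 0.387 and 0.326 CPM. The summed level of the 16 markers was 8.20 to 11.6 TPM per culture. In bulk samples, fewer cells of a type and less RNA per cell cannot be told apart.

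All receptor chains and kinases were detected, with the kinases above the receptor chains in each culture. In unstimulated cultures Jak1 was the highest at 69.2 ± 6.22 TPM (SD, n = 5), followed by Jak2 at 21.3 ± 2.07, Jak3 at 16.3 ± 2.58 and Tyk2 at 13.5 ± 1.06 TPM. Il12rb2 was at 2.14 ± 0.225 TPM, Il12rb1 at 0.782 ± 0.136 TPM and Il27ra at 0.689 ± 0.123 TPM. The mean Jak1 level was thus 32.3 times that of Il12rb2 and 88.4 times that of Il12rb1. Il12rb2, the chain particular to IL-12, was above the shared chain Il12rb1 in 15 of 15 cultures, 2.74 times on the means of unstimulated cultures. Il12rb1 was above Il27ra in 9 of 15 cultures, so the order of these neighbours was within their spread. Jak3 was above Tyk2 in 5 of 5 unstimulated cultures and in 0 of the 10 stimulated ones, and every other pair kept its order in 15 of 15 cultures.

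**Figure D1:**
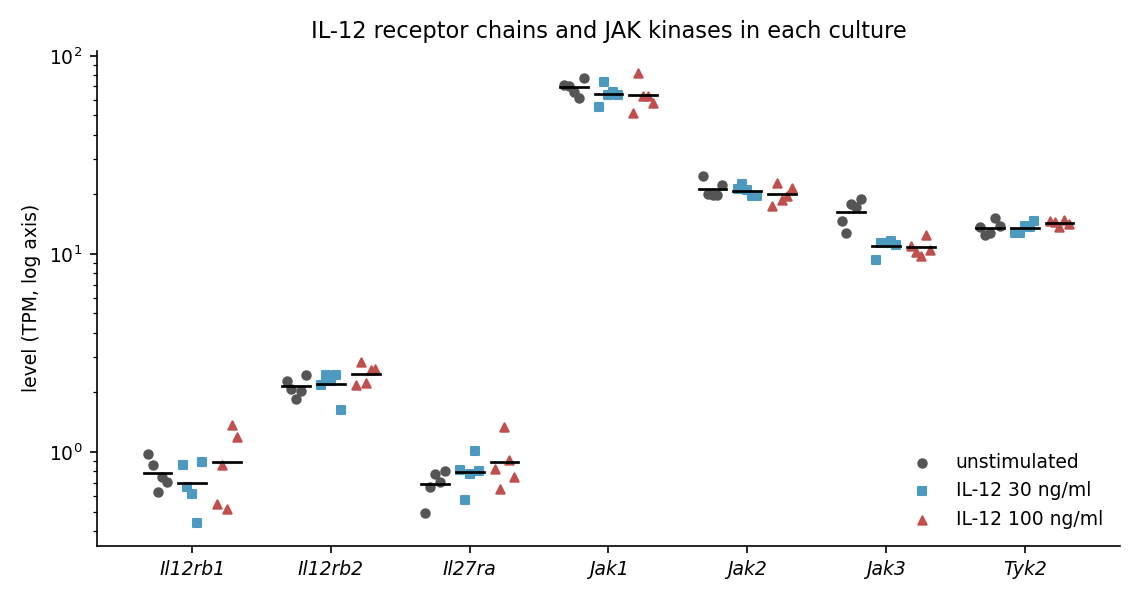
Level of each gene in each of the 15 cultures in TPM on a log axis, with 5 points per group and a line at the group mean. The 4 kinases sit between 9.35 and 81.6 TPM, the receptor chains between 0.437 and 2.83 TPM, and Jak3 is the gene whose stimulated cultures all lie below its unstimulated ones.

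The effect of IL-12 on these genes was tested in 1 fit of all 3 groups with edgeR's quasi-likelihood test, with Benjamini-Hochberg adjustment over 15360 genes (FDR) and calls at an FDR under 0.05. All 7 genes passed the filter, but Il12rb1 reached 1 CPM in 6 of 15 cultures and Il27ra in 12 of 15. Jak3 was called at 100 ng/ml, at 30 ng/ml and for the mean of both concentrations, each time lower. That is 1 of 7 genes, beside 9.77% of all genes tested at 100 ng/ml (3.93% lower), 7.87% at 30 ng/ml (3.71% lower) and 11.9% for the mean of both (5.22% lower), so the count by itself does not set these genes apart. Between 100 and 30 ng/ml 0 of 7 were called with edgeR and 0 with DESeq2, 0 had an unadjusted p under 0.05, and 0.579% of all genes were called. The median log2 fold change over all genes tested was between -0.004 and 0.0 in the 4 comparisons. Both concentrations were set against the same unstimulated cultures.

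**Figure D2:**
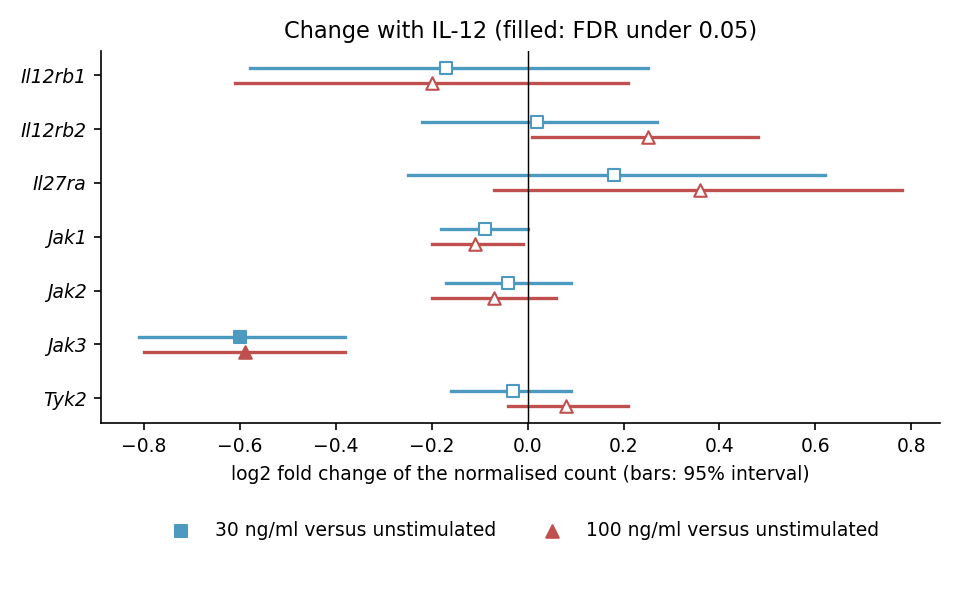
Log2 fold change of each gene at 30 ng/ml (squares) and 100 ng/ml (triangles) against unstimulated cultures, with bars for the 95% interval and filled symbols for an FDR under 0.05 (edgeR). Jak3 is at -0.60 and -0.59, and the other 6 genes, with open symbols, are between -0.20 and 0.36.

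Of the receptor chains, Il12rb2 (ENSMUSG00000018341, chr6:67268302-67353172, - strand) gave 3.79, 3.69, 3.32, 3.66 and 4.05 CPM in the unstimulated cultures. It gave 3.66, 4.07, 4.04, 4.29 and 2.76 CPM at 30 ng/ml, and 4.01, 4.97, 3.89, 4.57 and 4.55 CPM at 100 ng/ml. The latter group was the highest on the mean, but its lowest value was below the highest unstimulated one. The log2 fold change was 0.25 at 100 ng/ml (95% interval 0.01 to 0.48, unadjusted p = 0.0448, FDR = 0.184) and 0.02 at 30 ng/ml (-0.22 to 0.27, FDR = 0.933), and neither was called. These values rest on 78 to 156 reads per culture. Serbp1, which overlaps Il12rb2 on the opposite strand, differed by 0.02 at 100 ng/ml (FDR = 0.827).

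Il12rb1 (ENSMUSG00000000791, chr8:71261093-71276183, + strand) had 1.33, 1.04, 0.986, 0.825 and 1.07 CPM in unstimulated cultures. At 30 ng/ml the values were 1.19, 0.973, 0.973, 0.550 and 1.03 CPM, and at 100 ng/ml 0.846, 0.822, 0.875, 0.875 and 1.17 CPM. The groups overlapped, with log2 fold changes of -0.20 at 100 ng/ml (95% interval -0.61 to 0.21, FDR = 0.562) and -0.17 at 30 ng/ml (-0.58 to 0.25, FDR = 0.677). In TPM, which also depend on how the reads were divided among its transcripts, the means were 0.782 ± 0.136, 0.693 ± 0.187 and 0.896 ± 0.379 TPM in the same order of groups, so the direction at 100 ng/ml differed between the scales. With 16 to 51 reads per culture, a change of up to 0.61 downwards or 0.21 upwards on the log2 scale lies within the interval at 100 ng/ml.

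Il27ra (ENSMUSG00000005465, chr8:84756916-84769253, - strand) had 0.758, 1.04, 1.24, 1.15 and 1.22 CPM in unstimulated cultures. At 30 ng/ml it had 1.22, 0.869, 1.2, 1.58 and 1.2 CPM, and at 100 ng/ml 1.35, 0.978, 1.91, 1.45 and 1.17 CPM. The highest value was in a culture with 100 ng/ml and the lowest in an unstimulated one, but the groups overlapped. The log2 fold change was 0.36 at 100 ng/ml (95% interval -0.07 to 0.78, FDR = 0.281) and 0.18 at 30 ng/ml (-0.25 to 0.62, FDR = 0.661), from 25 to 59 reads per culture. Its partner Il6st was far more abundant, at 134 TPM in unstimulated cultures, and was not called, at 0.11 (FDR = 0.171) for 100 ng/ml and 0.15 (FDR = 0.0863) for 30 ng/ml on the log2 scale. For the mean of both concentrations Il6st was at 0.13 (FDR = 0.0651), not called with edgeR but called with DESeq2.

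Of the kinases of the IL-12 receptor, neither was called. Tyk2 (ENSMUSG00000032175, chr9:21015363-21042689, - strand) had 34.1 to 42.6 CPM (median 36.3) in unstimulated cultures, 34.0 to 38.3 CPM (median 37.2) with 30 ng/ml and 36.8 to 41.7 CPM (median 39) with 100 ng/ml. On the log2 scale it differed by 0.08 at 100 ng/ml (95% interval -0.04 to 0.21, FDR = 0.398) and -0.03 at 30 ng/ml (-0.16 to 0.09, FDR = 0.805). Jak2 (ENSMUSG00000024789, chr19:29228677-29290505, + strand) had 55.8 to 64.1 CPM (median 57.9) in unstimulated cultures, 53.1 to 60.7 CPM (median 58.3) at 30 ng/ml and 50.4 to 62.7 CPM (median 55.0) at 100 ng/ml. The Jak2 log2 fold change was -0.07 (95% interval -0.20 to 0.06, FDR = 0.509) and -0.04 (-0.17 to 0.09, FDR = 0.756) at 100 and 30 ng/ml. For both kinases the groups overlapped, and the intervals leave out a change beyond 0.21 in either direction.

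Jak1 (ENSMUSG00000028530, chr4:101008838-101122487, - strand), the kinase shared by most receptors of this class, had 163 to 177 CPM (median 176) in unstimulated cultures. It had 156 to 170 CPM (median 161) at 30 ng/ml and 148 to 169 CPM (median 164) at 100 ng/ml. The stimulated cultures were lower on the mean, with overlap through unstimulated replicate 2, the lowest of its group. The log2 fold change was -0.11 at 100 ng/ml (95% interval -0.20 to -0.01, unadjusted p = 0.0254, FDR = 0.130), -0.09 at 30 ng/ml (unadjusted p = 0.0459, FDR = 0.209) and -0.10 for the mean of both (FDR = 0.0918). Without the 100 ng/ml replicate 2, the mean of both was called (FDR = 0.0417), as it was with DESeq2 (adjusted p = 0.0474). Raver2, which overlaps Jak1 on the opposite strand, was not called.

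Jak3 (ENSMUSG00000031805, chr8:72123007-72143225, + strand) was lower in all 10 stimulated cultures than in any unstimulated one. The unstimulated cultures had 32.1, 28.6, 40.9, 39.5 and 40.8 CPM. Those with 30 ng/ml had 20.1, 24.6, 24.9, 26.3 and 24.4 CPM, and those with 100 ng/ml had 25.4, 21.7, 22.2, 28.3 and 23.3 CPM. The lowest unstimulated value, 28.6 CPM, was just above the highest stimulated one, 28.3 CPM. Of all genes tested, 1.17% had every stimulated culture below every unstimulated one, and of the 7 genes it was Jak3 alone.

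The mean Jak3 level went from 36.4 ± 5.67 CPM (SD, n = 5) to 24.1 ± 2.34 CPM at 30 ng/ml and 24.2 ± 2.72 CPM at 100 ng/ml. This is a log2 fold change of -0.60 at 30 ng/ml (SE 0.10, 95% interval -0.81 to -0.38, FDR = 0.00188), 1.51-fold lower. At 100 ng/ml it was -0.59 (SE 0.10, 95% interval -0.80 to -0.38, FDR = 0.00144), and for the mean of both -0.59 (SE 0.09, FDR = 0.000275). Between 100 and 30 ng/ml the difference was 0.01 (95% interval -0.21 to 0.22, FDR = 0.986). Jak3 was called in each of 24 other settings in the 3 comparisons with unstimulated cultures, with an FDR of at most 0.00783. These values rest on 555 to 1227 reads per culture. Of the summed TPM of the 4 kinases, Jak3 made up 13.6% ± 2.03 without stimulation, 9.99% ± 0.522 with 30 ng/ml and 10% ± 1.5 with 100 ng/ml.

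Both tested genes that overlap Jak3 fell too, Unc13a at both concentrations and B3gnt3 at 30 ng/ml. Unc13a, a gene of synaptic vesicle priming whose annotated span overlaps that of Jak3 by 1679 bases on the opposite strand, had 13.1 ± 0.912 CPM in unstimulated cultures, 8.91 ± 0.947 CPM at 30 ng/ml and 9.03 ± 1.28 CPM at 100 ng/ml (SD, n = 5 each). The log2 fold changes of Unc13a were -0.55 (FDR = 0.00169) with 30 ng/ml and -0.54 (FDR = 0.00151) with 100 ng/ml. B3gnt3, a glycosyltransferase gene that overlaps the other end of Jak3 by 1047 bases on the opposite strand, fell at 30 ng/ml, by 0.54 on the log2 scale (FDR = 0.0180), with -0.28 (FDR = 0.189) at 100 ng/ml. Both had fewer reads than Jak3, 231 to 531 for Unc13a and 81 to 202 for B3gnt3. Insl3, which overlaps on the same strand, had 0 to 25 reads and was not tested. As annotated, Unc13a ends at base 72124685, and the listed Jak3 transcripts start at base 72128692 or further downstream. The overlap with Unc13a thus lies outside these transcripts as annotated, and the overlap with B3gnt3 and Insl3 lies within the annotated span of some of them. The quantified versions differ in length, Jak3-202 with 3774 bases against 5792 annotated, so where they start and end is not known here. Whether the estimates used the strand of the reads is not given in the sources used here, and the part of reads shared with B3gnt3 or Insl3 in the Jak3 values was not tested.

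Markers of microglia, cerebellar neurons and endothelial cells were lower on the median at 30 ng/ml, as Jak3 was. Over 14 tested neuron markers the median log2 fold change was -0.49 with the lower concentration and -0.24 with the higher. In that order, 3 (2 lower) and 2 (1 lower) were called. For 4 endothelial markers the medians were -0.38 and -0.18, with 1 called lower each time. Astrocyte markers had medians of 0.16 and -0.02. The part of any cell type in the fall of Jak3 was not tested. Microglia markers are given in more detail. Of 14 markers 8 were called lower at 30 ng/ml, with a median log2 fold change of -0.42 over the list, and 0 at 100 ng/ml with edgeR and 0 with DESeq2, with a median of -0.12 and an unadjusted p under 0.05 for 2 markers. C1qa and C1qc, complement subunits and the 2 most abundant of the list, were at -0.43 and -0.42 at 30 ng/ml (FDR = 0.0173 and 0.0225) and at -0.12 and -0.16 at 100 ng/ml (FDR = 0.508 and 0.382). Between the concentrations 0 markers were called with edgeR, 2 with DESeq2, and 12 had an unadjusted p under 0.05. Their summed level was 7899.9 to 11063.9 TPM per unstimulated culture, 6286.7 to 7876.7 TPM at 30 ng/ml and 7491.8 to 9943.4 TPM at 100 ng/ml. Set against that sum, a ratio computed after the values had been seen and given without a test, Jak3 was at 1.71 ± 0.171 TPM per 1000 marker TPM in unstimulated cultures (range 1.56 to 2.00), at 1.52 ± 0.0856 at 30 ng/ml (1.44 to 1.66) and at 1.25 ± 0.0433 at 100 ng/ml (1.2 to 1.31). The unstimulated range overlapped that of 30 ng/ml and lay above that of 100 ng/ml.

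**Figure D3:**
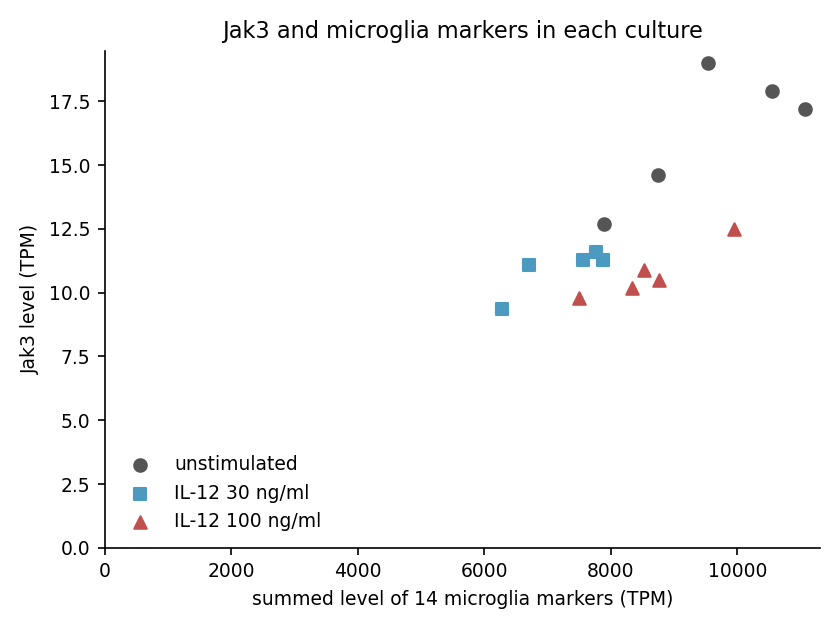
Jak3 level against the summed level of 14 microglia markers, both in TPM, with 1 point per culture. Jak3 is at 12.7 to 19.0 TPM in unstimulated cultures, 9.35 to 11.6 TPM at 30 ng/ml and 9.80 to 12.5 TPM at 100 ng/ml, and at 100 ng/ml the points lie below those of unstimulated cultures with a similar marker sum.

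The 7 genes have 34 transcripts in the quantified set, of which 24 had a mean above 0.1 TPM and 15 were tested. In all 4 comparisons 0 of 15 were called with edgeR, beside 0.559% of all transcripts tested at 100 ng/ml, 0.359% at 30 ng/ml, 0.0217% between the concentrations and 0.784% for the mean of both. At an unadjusted p under 0.05 there were 4 transcripts at 100 ng/ml, 2 at 30 ng/ml, 1 between the concentrations and 3 for the mean of both. Estimates per transcript carry the added uncertainty of dividing reads among transcripts of a gene, and only the counts per gene rest on all of them.

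Jak3 was carried by Jak3-202, at 9.75 ± 2.87 TPM in unstimulated cultures, 6.63 ± 0.858 TPM at 30 ng/ml and 6.61 ± 0.903 TPM at 100 ng/ml, and by Jak3-201, which starts further upstream and holds a coding sequence of the same length, 3300 bases, at 4.89 ± 1.43, 3.13 ± 0.613 and 3.05 ± 0.579 TPM. At 100 ng/ml the log2 fold change was -0.56 (FDR = 0.279) for Jak3-202 and -0.69 (FDR = 0.201) for Jak3-201. The retained-intron transcript Jak3-204 had 1.44 ± 0.441, 1.11 ± 0.529 and 1.07 ± 0.343 TPM, and Jak3-205 stayed under 1 TPM in every culture. Without unstimulated replicate 2, Jak3-202 was called for the mean of both concentrations, as 1 of 15 transcripts.

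Il12rb2 was divided about evenly between Il12rb2-201, whose coding sequence has 2622 bases, and Il12rb2-202, with 1620 bases. As annotated, Il12rb2-202 starts at base 67316678 on the - strand, downstream of the tryptophan-serine box shown above, and so lacks that box. Il12rb2-201 was at 1.02 ± 0.135 TPM in unstimulated cultures, 1.2 ± 0.273 TPM at 30 ng/ml and 1.27 ± 0.208 TPM at 100 ng/ml, and Il12rb2-202 at 1.13 ± 0.259, 0.990 ± 0.313 and 1.22 ± 0.164 TPM. Il12rb2-201 made up 47.8% of the gene's TPM without stimulation, 55.2% with 30 ng/ml and 50.9% with 100 ng/ml. By exact permutation tests, two-sided and against unstimulated cultures, p was 0.238 and 0.476 (adjusted p = 0.912 for each). Il12rb1 was split over Il12rb1-201, Il12rb1-205 and the retained-intron transcript Il12rb1-202, with means between 0.106 and 0.311 TPM, and with each of them at 0 in at least 1 culture. The short retained-intron transcript Il12rb1-206 added 0.236 ± 0.225 TPM at 100 ng/ml, 20.7% of the gene's TPM from 0 to 2 reads per culture, and was at 0 in all unstimulated cultures.

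Jak2 was split between Jak2-204 and Jak2-202, which share a coding sequence of 3396 bases. In unstimulated cultures Jak2-204 was at 12.5 ± 2.48 TPM and Jak2-202 at 8.79 ± 1.13 TPM. Jak2-204 made up 52.8% of the gene's TPM at 30 ng/ml and 60.1% at 100 ng/ml, a difference with an exact permutation p of 0.0476 (adjusted p = 0.500). Tyk2-203 held 87.7% of the Tyk2 level in unstimulated cultures, 89.8% at 30 ng/ml (exact permutation p = 0.0397, adjusted p = 0.500) and 84.4% at 100 ng/ml, and its other 5 transcripts had means of at most 0.813 TPM. Jak1-201 held 82.6% of the Jak1 level in unstimulated cultures, with most of the rest in Jak1-204, a transcript without a defined coding sequence at 10.4 ± 5.47 TPM. Il27ra-201 held at least 85.5% of the Il27ra level in every culture. Of 21 tests of the leading transcript's share, over 7 genes and 3 comparisons, 2 had an unadjusted p under 0.05 and 0 held after adjustment, where 0.00794 is the smallest p that 5 cultures against 5 allow.

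**Figure D4:**
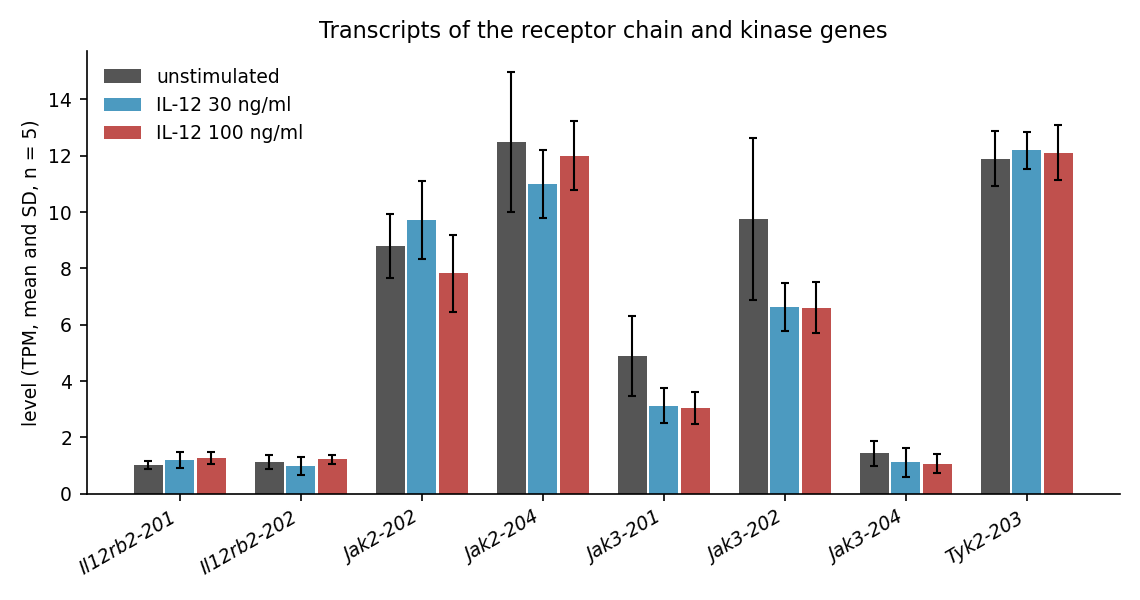
Mean level in TPM of 8 transcripts of Il12rb2, Jak2, Jak3 and Tyk2, with bars from 0, error bars for the SD and 5 cultures per group. Jak3-201 and Jak3-202 are lower on the mean at both concentrations, 3.13 and 3.05 against 4.89 TPM and 6.63 and 6.61 against 9.75 TPM, with error bars that overlap between the groups.

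Promoters of Il12rb2, Jak1, Jak2, Jak3 and Tyk2 were searched for motifs of the factors downstream of these kinases (RefSeq, GRCm38.p6, 250 bases before to 50 after the start). The Il12rb2 and Jak3 promoters are shown, for the IL-12-specific chain and for the gene that was called.
Il12rb2 (chr6:67376139-67376438, - strand): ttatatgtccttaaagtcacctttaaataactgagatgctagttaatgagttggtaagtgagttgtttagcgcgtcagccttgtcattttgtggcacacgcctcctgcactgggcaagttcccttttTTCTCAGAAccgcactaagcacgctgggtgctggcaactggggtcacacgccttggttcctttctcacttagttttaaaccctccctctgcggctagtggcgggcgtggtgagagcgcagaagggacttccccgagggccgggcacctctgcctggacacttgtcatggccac
Jak3 (chr8:71676133-71676432, + strand): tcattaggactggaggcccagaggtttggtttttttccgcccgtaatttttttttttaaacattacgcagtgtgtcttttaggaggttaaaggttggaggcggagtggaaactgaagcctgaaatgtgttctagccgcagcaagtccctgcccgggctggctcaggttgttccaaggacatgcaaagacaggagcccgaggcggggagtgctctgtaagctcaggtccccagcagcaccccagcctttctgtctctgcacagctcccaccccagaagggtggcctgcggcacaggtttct
The capitals in Il12rb2 mark 1 match to TTCNNNGAA, the letters bound by STAT dimers, 123 bases before the start. The other 4 promoters held 0 matches to it, and all 5 held 0 matches to the core of the interferon-stimulated response element, here a pair of GAAA repeats 2 bases apart. Both strands were searched. Of 32851 mouse promoters of the same length, 8.30% held the former and 3.44% the latter, and a match or its lack is a description of these letters only. Of the 7 genes 5 were matched to a promoter, and Il12rb1 and Il27ra were not.

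Genes around the receptor were taken from 6 lists of the pathway. Of 93 listed genes 68 were tested, and 9 of them were called at 100 ng/ml (4 higher, 5 lower, 13.2%), 12 at 30 ng/ml (4 higher, 8 lower, 17.6%), 12 for the mean of both (3 higher, 9 lower, 17.6%) and 0 between the concentrations with edgeR (2 with DESeq2, and 20 with an unadjusted p under 0.05). Over all genes tested the shares were 9.77%, 7.87% and 11.9%. The median log2 fold change over the lists was -0.02 and -0.06, beside 0.0 for all genes. The counts depended on single cultures: at 30 ng/ml 19 were called without unstimulated replicate 2, 7 without unstimulated replicate 3 and 7 without the 30 ng/ml replicate 1, and at 100 ng/ml 5 without unstimulated replicate 4, 5 without unstimulated replicate 5 and 4 without the 100 ng/ml replicate 1. For the mean of both, 7 were called without unstimulated replicate 4.

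Reads of the IL-12 genes themselves were nearly absent. Il12a had 0 to 3 reads per culture and Il12b 0 to 1, and Il27 had 0 to 5. The 2 ligand genes that passed the filter were not called, Il23a at 1.39 CPM and Ebi3, the partner of Il27, at 7.31 CPM in unstimulated cultures. The partner chain Il23r, which joins Il12rb1 in the IL-23 receptor, had 5 to 21 reads per culture and was not tested.

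Among the STAT factors, Stat4, the factor activated by the IL-12 receptor, had 0 to 6 reads per culture with 0 reads in 2 of 15 cultures, and was below the filter. Of the 6 others, Stat5a rose at 100 ng/ml, with a log2 fold change of 0.26 (FDR = 0.0401) from 8.35 ± 0.477 to 10 ± 0.491 CPM, and had 0.05 (FDR = 0.762) at 30 ng/ml. Stat6, the factor of the IL-4 receptor, fell at 30 ng/ml by 0.25 on the log2 scale (FDR = 0.0296), with -0.05 (FDR = 0.653) at 100 ng/ml. Between the concentrations, neither Stat5a (FDR = 0.262) nor Stat6 (FDR = 0.244) was called. Stat3 was the most abundant of those named, at 102 TPM in unstimulated cultures, and differed by -0.01 and 0.06.

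Of 19 inhibitors and phosphatases of JAK-STAT signalling, 2 were called at 100 ng/ml, 10.5% beside 9.77% of all genes, with a median of -0.01 over the list. Socs3, an inhibitor of JAKs at gp130-type receptors, rose from 48.2 ± 3.02 CPM in unstimulated cultures to 67.8 ± 6.13 CPM at 30 ng/ml and 66.6 ± 4.91 CPM at 100 ng/ml (log2 fold change 0.49, FDR = 0.000452 and 0.47, FDR = 0.000253). Socs6 fell at 100 ng/ml by 0.28 on the log2 scale (FDR = 0.0380), with -0.18 (FDR = 0.189) at 30 ng/ml.

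Of 23 genes known as targets of IL-12 or STAT4 in T and NK cells, 12 passed the filter. At 100 ng/ml 4 were called (33.3%, beside 9.77% of all genes), 2 in each direction. At 30 ng/ml 3 were called (25%, beside 7.87%), 1 higher and 2 lower. For the mean of both 4 were called (33.3%, beside 11.9%), 1 higher and 3 lower. Ifng, the best-known target, had 0 to 1 reads per culture, Tbx21 had 1 to 6 and Gzmb had 0 in all. Gadd45g, a stress-inducible gene also active outside T cells, rose from 33.4 ± 1.99 to 47.5 ± 4.14 CPM at 30 ng/ml and 43.7 ± 4.44 CPM at 100 ng/ml (log2 fold change 0.51, FDR = 0.000524 and 0.39, FDR = 0.00242). Map3k8 rose at 100 ng/ml, by 0.35 (FDR = 0.0322), with 0.06 (FDR = 0.795) at 30 ng/ml. Irf8, a transcription factor also used by microglia, fell by 0.49 (FDR = 0.00756) at 30 ng/ml and 0.37 (FDR = 0.0302) at 100 ng/ml on the log2 scale. Havcr2 fell at 30 ng/ml by 0.36 (FDR = 0.0227), with -0.18 (FDR = 0.247) at 100 ng/ml.

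Of other receptors that signal through these kinases, 28 were tested, and 7 were called at 30 ng/ml (25%, beside 7.87% of all genes), 2 higher and 5 lower. With DESeq2 12 were called at 30 ng/ml. At 100 ng/ml 2 were called (7.14%, beside 9.77% of all genes), both lower. The beta chains for IL-3 and GM-CSF were among them: Csf2rb2 fell by 0.60 (FDR = 0.00137) at 30 ng/ml and 0.48 (FDR = 0.00478) at 100 ng/ml on the log2 scale, and Csf2rb fell by 0.43 (FDR = 0.0150) at 30 ng/ml. These 2 genes are near-identical copies, so the division of reads between them is uncertain. Il10ra, a chain of the IL-10 receptor, fell by 0.54 (FDR = 0.00396) and Ifngr1, a chain of the interferon gamma receptor, by 0.28 (FDR = 0.00721) at 30 ng/ml, with -0.21 (FDR = 0.200) and -0.14 (FDR = 0.130) at 100 ng/ml. The fifth lower gene at 30 ng/ml was Csf3r, the higher ones were Osmr and Ghr, and the second lower gene at 100 ng/ml was Lepr. Medians of microglia, cerebellar neuron and endothelial markers were also lower at 30 ng/ml, and that of astrocyte markers was higher, as given above. The part of these cell types in the calls was not tested. Il2rg, the common gamma chain that JAK3 serves, was at 15 ± 2.51 CPM in unstimulated cultures, 13.4 ± 1.64 CPM with 30 ng/ml and 17.6 ± 1.06 CPM with 100 ng/ml, and was not called, at -0.16 (FDR = 0.384) for 30 ng/ml and 0.23 (FDR = 0.146) for 100 ng/ml on the log2 scale. Map3k8, Csf3r, Osmr, Ghr, Lepr, Stat3 and Il2rg fall outside the rule for named genes and were chosen after their values had been seen. The same holds for the ligand genes Il27, Il23a and Ebi3, and for Ifng, Tbx21 and Gzmb. It also holds for the markers Trbc2, Klrb1c, Ncr1, Cd3e, Cd247, Zap70 and Cd3d, and for genes named because they overlap a member.

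**Figure D5:**
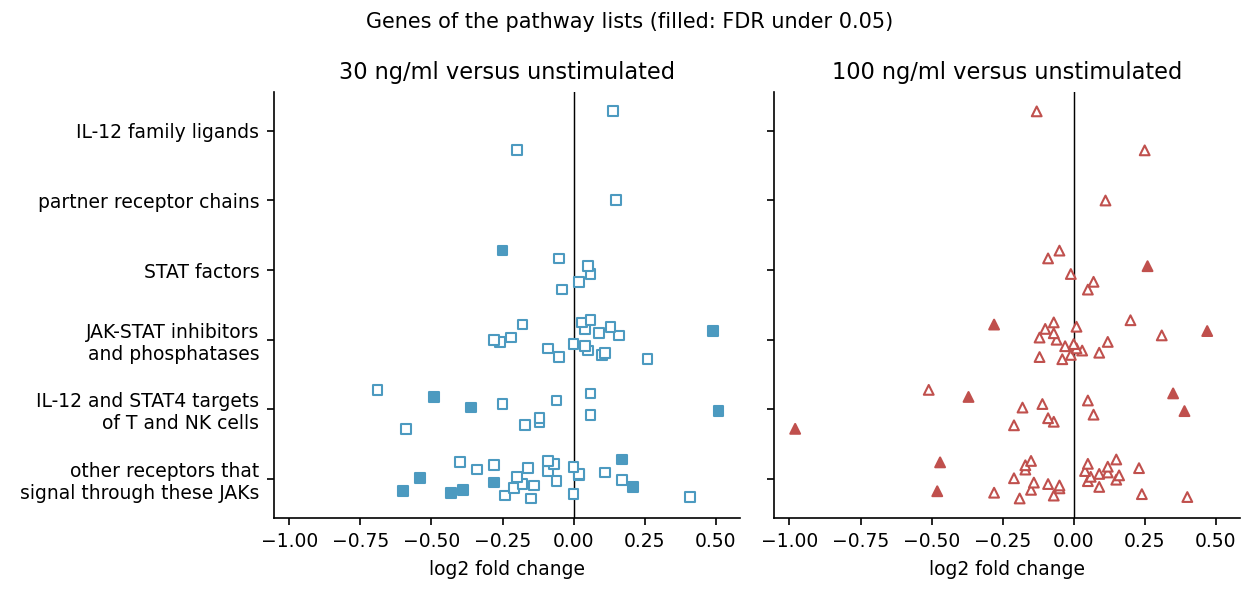
Log2 fold change of the 68 tested genes of the 6 pathway lists at 30 ng/ml (left, 12 called) and 100 ng/ml (right, 9 called), with 1 symbol per gene and filled symbols for an FDR under 0.05. The lists spread on both sides of 0, with Socs3 at 0.49 and 0.47 and Gadd45g at 0.51 and 0.39 as the filled symbols on the far right of both panels.

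The genes whose log2 CPM ran most alike with each member over the 15 cultures are given as a description, since cultures of a group share their treatment and all share library composition. Jak3 was most like Slco2b1, a transporter gene (r = 0.96), Dgkd, a diacylglycerol kinase gene (r = 0.96), and Pgam1, a glycolytic enzyme gene with related copies (r = 0.94), among 12144 protein-coding genes with a mean of at least 5 CPM. All of these were called lower at both concentrations, Slco2b1 with log2 fold changes of -0.73 and -0.75 at 30 and 100 ng/ml, Dgkd with -0.36 and -0.34, and Pgam1 with -0.35 and -0.36. Jak1 was most like Rab8b (r = 0.97), Rbpj and Wipf1 (r = 0.96 each). Jak2 was most like Cdc73, Stag1 and Prkaa1 (r = 0.91 each), and Tyk2 like Tcirg1 (r = 0.90), Map3k14 and 1600014C10Rik (r = 0.89 each). For the receptor chains the highest values were lower, from 0.78 to 0.86, with Pitpna, Rapgef5 and Smc1a for Il12rb2, Trp53bp2, Tlcd3a and Vamp2 for Il12rb1, and Lrrc75a, Exosc4 and Stub1 for Il27ra. None of the latter 3 genes was called, and their values beside Il27ra rest on at most 59 reads of that gene per culture.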

How the data were processed

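RNA of 15 cultures (5 unstimulated, 5 with 30 ng/ml and 5 with 100 ng/ml IL-12p70 for 18 h) was measured from stranded, poly(A)-selected libraries with single-end reads of 100 bases. The deposited values are estimated counts and TPM for 121798 transcripts, with the length and effective length of each transcript. The program that made them is not given in the sources used here. The methods and the submitters' processing notes name GRCm39, STAR 2.7.8a and featureCounts per gene, a different kind of count from the estimated counts the authors deposited, which were used here. Transcripts were matched to GENCODE release M39 (98.96%), summed by gene and rounded, and unmatched transcripts held 0.677% to 0.712% of reads per culture. Some quantified transcripts differ in length from that release. The transcript positions and coding sequences given here are those of the release.

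Genes that reached 1 CPM in 2 or more cultures were scaled with TMM and tested with edgeR 4.0.16 (R 4.3.3) in 1 model of 3 groups. CPM use TMM factors. Transcript shares were compared by exact permutation of cultures (Python 3.11.15). Scripts were tested on simulated data. Alternatives were DESeq2 1.42.0, RLE factors, library size alone, no filter, a minimum of 10 counts per culture, a likelihood-ratio test, a fit of only the compared groups, length-scaled TPM counts, the replicate number as a block, and each culture left out. The genes and lists were chosen with earlier results of these data known. Named genes were the 7 genes and their transcripts above 0.1 TPM, up to 4 called genes per pathway list with the smallest FDR, Stat4, Il6st, Il23r, Il12a and Il12b, the 2 most abundant markers of each cell type list and those called at 100 ng/ml (at most 4), and the 3 genes most correlated with each member. Of these, 1 called gene of a pathway list is counted but not reported here by name.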

Additional observations from a re-analysis of the deposited data

Results flagged for a closer look

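In 4 of 21 groups of 5 cultures, 1 culture stood apart from the other 4 by Dixon's test, which flags about 1 in 20 groups by chance. Il12rb1 was highest in the 100 ng/ml replicate 5, at 1.17 CPM from 40 reads, against 0.822 to 0.875 CPM in the others. Jak1 was lowest in unstimulated replicate 2, at 163 CPM against 174 to 177 CPM. Jak2 was highest in unstimulated replicate 1, at 64.1 CPM against 55.8 to 57.9 CPM. Tyk2 was highest in unstimulated replicate 4, at 42.6 CPM against 34.1 to 36.4 CPM. No group of Jak3, Il12rb2 or Il27ra was flagged.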

How the results depend on the processing

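The calls of these genes were the same in the 24 other settings at 100 ng/ml, at 30 ng/ml and between the concentrations, that is Jak3, Jak3 and 0 genes. For the mean of both concentrations 2 genes were called with DESeq2 and 2 without the 100 ng/ml replicate 2 (range 1 to 2 over cultures left out), Jak1 beside Jak3, and the cause was not tested. Without each culture in turn, pathway genes called ranged from 4 to 12 at 100 ng/ml, 7 to 19 at 30 ng/ml, 7 to 18 for the mean of both and 0 to 1 between the concentrations (2 with DESeq2), and transcripts called for the mean of both from 0 to 1. Directions of some uncalled values turned. With length-scaled TPM counts, Il12rb1 was at 0.208 at 100 ng/ml, against -0.20 in the fit above. Between the concentrations it was at 0.419 with these counts, against -0.03. Of values near 0, Jak1 was at 0.010 between the concentrations with length-scaled TPM counts, and Jak3 at -0.004 with library size alone.

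With cultures left out in turn, log2 fold changes between the concentrations ranged from -0.173 to 0.069 for Il12rb1, -0.031 to 0.016 for Jak1, -0.075 to 0.005 for Jak2 and -0.054 to 0.047 for Jak3. Against unstimulated cultures they ranged from -0.028 to 0.118 for Il12rb2 and -0.060 to 0.023 for Tyk2 at 30 ng/ml, and from -0.002 to 0.081 for Tyk2 for the mean of both. Of 15 same-numbered pairs of cultures 4 had correlated deviations over 0.1 (range -0.18 to 0.26). Pairs with different numbers ranged from -0.239 to 0.311. These values show no clear pairing by number, and cannot tell whether cultures shared a litter or preparation. With the replicate block, the members called were 1, 1, 0 and 1 in the 4 comparisons, and pathway genes called 6, 14, 0 and 13. All 7 genes passed the filter, so the tests planned for genes below it were not needed. Il12rb1 and Il27ra rest on at most 59 reads per culture, so changes within their intervals could not be detected at this depth.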
